A study of Mus musculus with 12 samples.

Results

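Hepatocytes clear drugs, hormones, bilirubin and bile salts from the blood with membrane transporters. Carriers on the membrane that faces the sinusoid take organic anions up, pumps on the canalicular membrane export conjugates and lipid into bile, and pumps on the basolateral membrane return conjugates to the blood. Their RNA is known to respond to xenobiotic receptors, to bile salts and, for some carriers of the mouse, to sex hormones and growth hormone. The 9 transporters described here were chosen by gene symbol from a table of 21705 genes: the uptake carriers Slco1a1, Slco1a4, Slco1b2, Slco2b1 and Slc22a7, the canalicular pumps Abcc2 and Abcb4, and the basolateral pumps Abcc3 and Abcc6. All 9 were among the 12486 genes with a mean value of at least 10 that were tested.

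Messenger RNA was sequenced from livers of C57BL/6J female mice, 10 to 12 weeks old, that had been dosed through the tail vein. The 6 saline livers came from mice given saline, and the 6 LNA29 livers from mice given a pair of locked nucleic acid inhibitors, LNA29a and LNA29bc, at 20 mg/kg each. The livers were collected on day 7 after dosing, following an overnight fast, and each library came from a single animal. The comparison asks which hepatic RNAs differ when miR-29a, miR-29b and miR-29c are inhibited together, and its control is saline rather than an unrelated locked nucleic acid.

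The deposited unit is a signal value scaled in each liver so that the upper quartile, taken over genes with reads, is 1000 (998 in saline replicate 49), and a gene without reads is listed at 1. The reads assigned to genes numbered 8217212 to 19062438 in saline livers (median 12011980.5) and 7696080 to 15079234 in LNA29 livers (median 9123458.5). One read was worth between 9.80 and 24.4 in this unit. The transporter with the fewest reads, Slc22a7, had between 13 and 68 in a liver, and Slco1b2 had between 433 and 2063. In whole liver, a loss of hepatocytes and less RNA in each hepatocyte cannot be told apart.

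The labels were checked with collagen genes that miR-29 is known to repress. Col3a1 had 222 ± 57.6 in saline livers and 650.1 ± 253 in LNA29 livers (SD, n = 6 each), and all 6 LNA29 livers lay above all 6 saline livers. The log2 fold change of Col3a1 was 1.48 (standard error 0.28, limma adjusted p = 0.0438). Col1a1 had 228 ± 80.4 and 391.8 ± 199 (SD, n = 6 each), with a log2 fold change of 0.70 (limma adjusted p = 0.688) and 3 LNA29 livers above every saline liver. Among 8 such targets 7 had a higher estimate in LNA29 livers, and Sparc (1.51), Eln (1.93) and Col3a1 had an adjusted p under 0.05. When saline replicate 49, described below, was left out, Sparc and Eln kept an adjusted p under 0.05 and Col3a1 did not, at a log2 fold change of 1.49. The tissue was checked with 7 measured hepatocyte markers, all of which had reads in every liver, with albumin the most abundant of them.

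One library stood apart before any comparison. Albumin made up 35.7% of reads in saline replicate 49 and the 10 largest genes 56.6%, against 43.6% to 46.9% and 67.8% to 71.4% in the other saline livers. The summed hepatocyte markers were 32385000 there, the lowest of the 12 livers, against a saline median of 88600200. Albumin was 29304000 of that sum, so the sum largely repeats the low albumin. Across 12164 genes with an annotated transcript, the deviation of this library from the mean of the 12 livers rose with transcript length (Spearman rho 0.50 across genes, which are not independent replicates), and in the other libraries this rho lay between -0.29 and 0.28. What set this library apart was not tested, and the fold change of each transporter, their levels per length and their spread are given with and without it.

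miR-29a, miR-29b and miR-29c carry the same seed, bases 2 to 8 of the mature RNA. The mature sequences from RefSeq (GRCm38.p6) are shown with the seed in capitals, since a target site pairs with these bases.
mmu-miR-29a-3p: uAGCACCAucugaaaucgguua
mmu-miR-29b-3p: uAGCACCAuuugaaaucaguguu
mmu-miR-29c-3p: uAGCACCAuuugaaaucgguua

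The complement of the seed, TGGTGCT, was looked for in the 3′ UTR of each transporter, taking the longest one annotated (GENCODE, GRCm38, which is not the mm9 build of the deposited table). It was found once each in Slco1a4, Slco1b2, Slc22a7 and Abcc3, so in 4 of 9 transporters, and in 1877 of the 12145 tested genes with an annotated 3′ UTR (15.5%). The sites are shown with the match in capitals and a few bases on either side, because they are the places where release from miR-29 would act directly.
Slco1a4, chr6:141805519-141805525, minus strand, exon 17: acaatgccTGGTGCTttctgtca
Slco1b2, chr6:141685967-141685973, plus strand, exon 16: aatttgcaTGGTGCTattctctc
Slc22a7, chr17:46432388-46432394, minus strand, exon 10: gctgctacTGGTGCTgtctgcct
Abcc3, chr11:94343335-94343341, minus strand, exon 31: ccctgtacTGGTGCTgtctgagt
In Slco1b2 alone of these the match was followed by an A. Slco1a1, Slco2b1, Abcc2, Abcc6 and Abcb4 held no match in 3′ UTRs of 1881, 2237, 3183, 456 and 51 bases. A match in these letters is a description and no proof of binding.

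None of the 9 transporters passed the test. In limma, 0 of 9 had an adjusted p under 0.05, where 20 of 12486 genes did (0.160%), and 0 of 9 were called by edgeR (0.136% of all tested genes) or DESeq2 (0.577%) on recovered reads. At an unadjusted limma p under 0.05, 2 of 9 were lower in LNA29 livers, Abcc6 and Slco2b1, beside 5.97% of all tested genes, and 0 of 9 were higher, beside 1.95%. The unadjusted p was under 0.05 for Slco1a1 (higher) and Abcc6 (lower) both in edgeR, beside 3.20% and 3.84% of tested genes in those directions, and in DESeq2, beside 2.92% and 3.40%. In 0 of 9 did the 6 LNA29 livers lie wholly above or wholly below the 6 saline livers, which 0.985% of tested genes did. The median log2 fold change of the 9 transporters was -0.08, with 4 higher and 5 lower, and that of all tested genes was -0.09. Among all tested genes 38.6% had a higher estimate in LNA29 livers by limma on the deposited values, and 47.8% by edgeR and 48.8% by DESeq2 on recovered reads, and the counts of higher and lower estimates in each list below are to be read beside these shares.

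Without saline replicate 49, 0 of 9 had a limma adjusted p under 0.05 (0.153% of 12458 tested genes), 1 of 9, Abcc6, was lower at an unadjusted p under 0.05 (5.67%), and 0 of 9 had groups without overlap (1.54%). The median log2 fold change of the 9 was then -0.05, beside -0.08 for all tested genes.

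**Figure D1:**
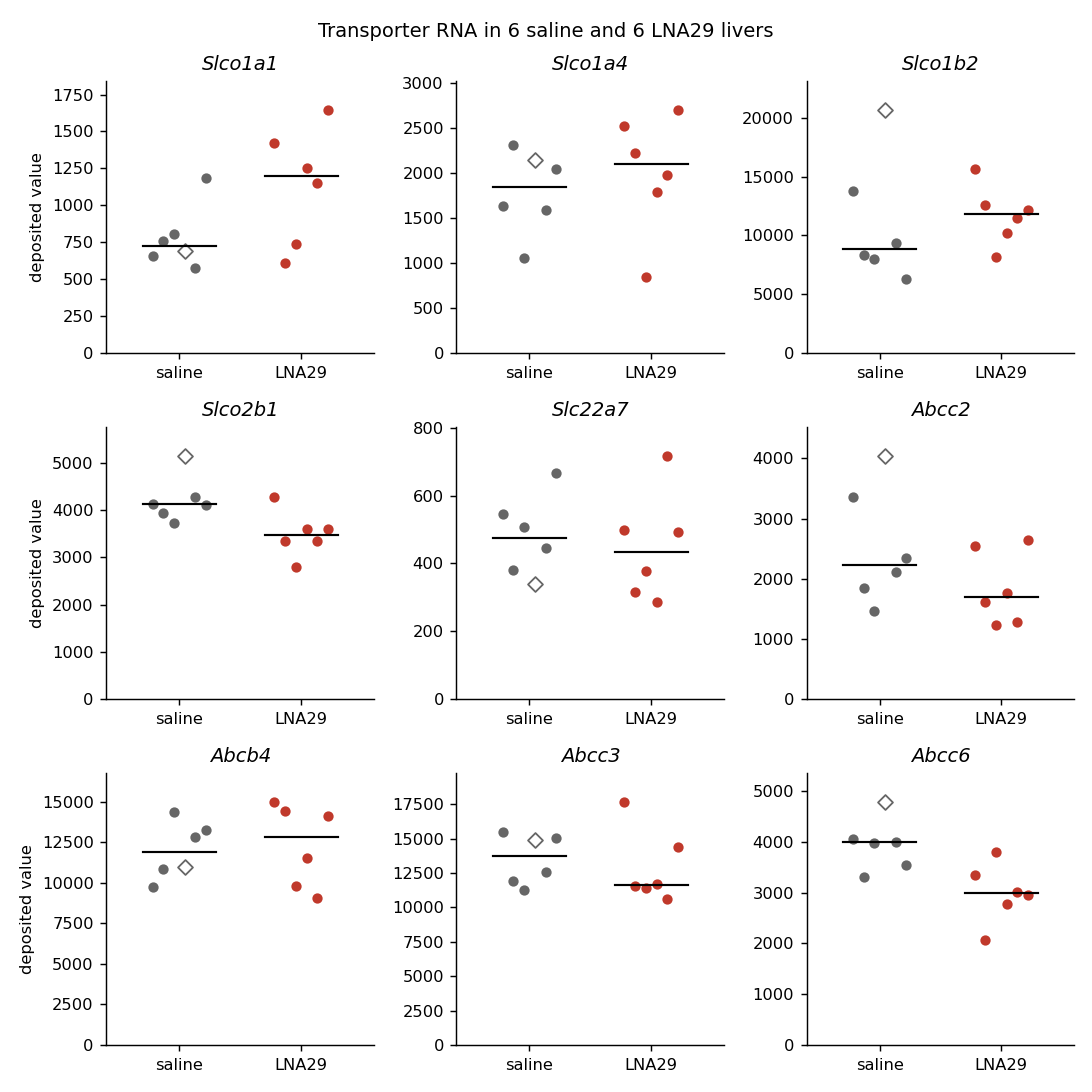
Deposited value (vertical axis, from 0) of each transporter in 6 saline livers (grey) and 6 LNA29 livers (red), 1 point a liver, with the group median as a bar and saline replicate 49 as an open diamond. The groups overlap in each of the 9 panels, and saline replicate 49 is the highest of the 12 livers for Slco1b2, Slco2b1, Abcc2 and Abcc6.

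Among the uptake carriers, Slco1a1 had the largest difference in the upward direction. It encodes a sodium-independent carrier of bile salts and steroid conjugates that is known to be more abundant in livers of male mice. Saline livers had Slco1a1 values of 576 at the lowest, 726 at the median and 1186 at the highest. LNA29 livers had 609.8, 1200.5 and 1644, from between 25 and 120 reads a liver. The groups overlapped: 3 LNA29 livers, replicates 44, 50 and 54, lay above every saline liver, and the other 3 lay within the saline range, whose top value was that of saline replicate 53. Slco1a1 had a log2 fold change of 0.50 (95% interval -0.01 to 1.01, limma adjusted p = 0.643), and p was 0.108 in an exact permutation test, two-sided, in which the 12 livers were divided in every way. Leaving out saline replicate 49 gave 0.47 (limma adjusted p = 0.717).

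Slco1a4 encodes a related carrier that also takes up cardiac glycosides. Its values were 1053, 1845 and 2317 in saline livers (lowest, median and highest) and 849, 2100.3 and 2699 in LNA29 livers. The LNA29 livers spanned the whole saline range, with replicates 44 and 54 above it and replicate 48 below it. Slco1a4 had a log2 fold change of 0.12 (95% interval -0.42 to 0.65, limma adjusted p = 0.954; exact permutation test, p = 0.684). It was 0.18 without saline replicate 49 and -0.03 without saline replicate 47, the lowest saline liver.

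Slco1b2 encodes the carrier for bilirubin and many drugs that is largely restricted to hepatocytes. Saline livers had 6275, 8823 and 20630, the last of these in saline replicate 49, and LNA29 livers had 8169.8, 11851 and 15625. Every LNA29 liver lay within the saline range, but 5 of the 6 were above the saline median. For Slco1b2 the log2 fold change was 0.17 (95% interval -0.33 to 0.68, limma adjusted p = 0.920; exact permutation test, p = 0.558). When saline replicate 49 was left out, the saline values ended at 13781 and the estimate was 0.38 (95% interval -0.03 to 0.78, limma adjusted p = 0.667), so this estimate depends much on a single library.

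Slco2b1 encodes a carrier of steroid sulfates. Saline livers had 3737, 4124 and 5150 and LNA29 livers had 2792, 3472 and 4275. In 5 of the 6 LNA29 livers the value was below every saline liver, and the exception was LNA29 replicate 44, which lay above 5 of the 6 saline livers. Slco2b1 had a log2 fold change of -0.28 (95% interval -0.55 to -0.00366, limma p = 0.0473 unadjusted and 0.623 adjusted), and the exact permutation test gave p = 0.0216. Leaving out the highest saline liver, replicate 49, gave -0.22, limma adjusted p = 0.726 and exact permutation p = 0.0476. A pair of genes on the opposite strand, Gm15635 and Gm34280, overlap Slco2b1 in the annotation, and whether reads were assigned by strand is not given in the sources used here.

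Slc22a7 encodes an organic anion carrier that also moves cyclic nucleotides. Its values were 340, 477 and 667 in saline livers and 286, 435 and 717 in LNA29 livers. The groups lay over each other, with LNA29 livers both at the top and at the bottom of the 12. For Slc22a7 the log2 fold change was -0.14 (95% interval -0.65 to 0.38, limma adjusted p = 0.938; exact permutation test, p = 0.589), and -0.23 when the lowest saline liver, replicate 49, was left out. With each of the 12 livers left out in turn it ranged from -0.286 to -0.021.

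Of the canalicular pumps, Abcc2 exports bilirubin glucuronides and glutathione conjugates into bile. Saline livers had Abcc2 values of 1456, 2227 and 4040, and LNA29 livers had 1226, 1689 and 2644. LNA29 replicates 48 and 52 lay below every saline liver, and the highest value was again that of saline replicate 49. The log2 fold change, the lowest of the 9 over 12 livers, was -0.43 (95% interval -0.96 to 0.10, limma adjusted p = 0.729; exact permutation test, p = 0.175). Leaving out that liver gave -0.28 (limma adjusted p = 0.840), and Abcc6, at -0.36, was then the lowest.

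Abcb4 moves phosphatidylcholine into bile and carries lipid rather than drugs. Its values were 9765, 11923 and 14350.4 in saline livers and 9056, 12828 and 14999.6 in LNA29 livers, with both groups spread over the same range. Abcb4 had a log2 fold change of 0.02 (95% interval -0.31 to 0.35, limma adjusted p = 0.986; exact permutation test, p = 0.881), and of 0.000261 with saline replicate 49 left out.

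On the basolateral side, Abcc3 exports glucuronides back to the blood. It had 11246, 13743 and 15484 in saline livers and 10585, 11659 and 17687.5 in LNA29 livers. The highest and the lowest of the 12 livers were both LNA29 livers, replicates 44 and 52, and 4 of the 6 LNA29 livers were below the saline median. For Abcc3 the log2 fold change was -0.08 (95% interval -0.39 to 0.23, limma adjusted p = 0.940; exact permutation test, p = 0.580), and -0.05 with saline replicate 49 left out.

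Abcc6, whose loss is known to cause mineral deposits in connective tissue, releases ATP from hepatocytes. Saline livers had 3302, 3991 and 4790 and LNA29 livers had 2073, 2989 and 3792. Every LNA29 liver was below the saline median and 4 of the 6 were below every saline liver, while LNA29 replicates 44 and 48 lay within the saline range. Abcc6 had a log2 fold change of -0.41 (95% interval -0.73 to -0.10, limma p = 0.0135 unadjusted and 0.433 adjusted), and the exact permutation test gave p = 0.0108, where 0.00216 is the smallest p that 6 against 6 livers allow. With saline replicate 49 left out these were -0.36, limma adjusted p = 0.538 and exact permutation p = 0.0238. Among all tested genes 30.1% had as large a log2 fold change in either direction as Abcc6, which stood at place 388 by limma p.

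**Figure D2:**
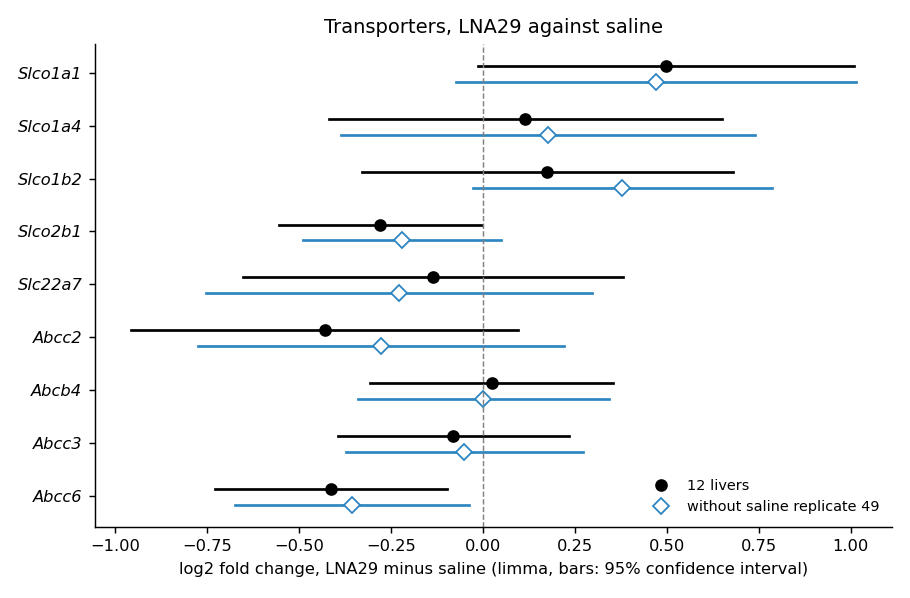
Log2 fold change (LNA29 minus saline, horizontal axis) of each transporter from limma with its 95% confidence interval, over 12 livers (black circles) and without saline replicate 49 (blue diamonds). The intervals of Abcc6 and Slco2b1 lie below 0 over 12 livers, that of Slco2b1 barely, and without saline replicate 49 only that of Abcc6 does.

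Between genes, levels can be compared only per length, so each mean value was divided by the length of the longest annotated transcript in kb. In saline livers Slco1b2 was highest at 3345 ± 1609 per kb (SD, n = 6), followed by Abcb4 at 2945 ± 427 and Abcc3 at 2702 ± 364. Neighbours within these 3 overlapped in range. Slco1b2 was also first in LNA29 livers, at 3542 ± 756 per kb (SD, n = 6), but among saline livers its first place by this length depended on replicate 49. In the other 5 saline livers Abcb4 came first at 2995 ± 457 per kb, before Slco1b2 at 2766 ± 851 and Abcc3 at 2648 ± 378 (SD, n = 5), and the other places were as over 6 livers. By this length a gap followed, since Slco2b1 at 965 ± 111 per kb lay below every liver of Abcc3.

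Abcc6 was next at 794 ± 103 per kb, overlapping Slco2b1 in range over 6 livers but not in the 5 without replicate 49. Slco1a4 had 471 ± 121 per kb, with no saline liver as high as the lowest Abcc6 value. Abcc2 at 315 ± 122, Slc22a7 at 242 ± 59.8 and Slco1a1 at 199.7 ± 55.1 per kb closed the order, each overlapping its neighbour. In LNA29 livers the first 6 places were the same, and Slco1a1 at 291 ± 102 per kb stood before Abcc2 at 229.8 ± 76.3 and Slc22a7 at 225 ± 79.7, all with overlapping ranges. Taken per kb of coding sequence, Slco1a4 and Abcc6 exchanged places in both groups, and Slc22a7 and Slco1a1 did so in saline livers. Slco1b2 was first in both groups by coding length. Slco2b1 then stood nearer to Abcc3, at 2030 ± 234 against 2958 ± 399 per coding kb in saline livers (SD, n = 6). Whether single livers overlapped by coding length was not examined.

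**Figure D3:**
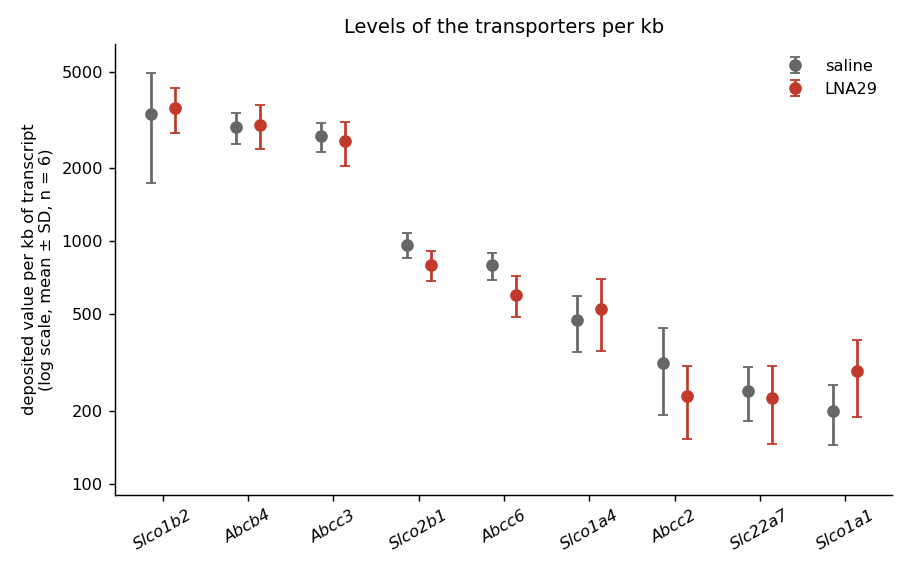
Deposited value per kb of the longest annotated transcript (vertical axis, log scale) of each transporter, as mean ± SD over 6 saline (grey) and 6 LNA29 (red) livers. Slco1b2, Abcb4 and Abcc3 sit between 2577 and 3542 per kb in both groups, and the other 6 lie below 1000.

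The transporters differed in how much they varied between animals. In saline livers the coefficient of variation was lowest for Slco2b1 at 11.5% and highest for Slco1b2 at 48.1%, with a median of 24.7% over the 9, beside a median of 27.0% over the 8990 genes whose mean reached 100. These extremes depended on saline replicate 49: in the other 5 saline livers the coefficient was 5.08% for Slco2b1, still the lowest, and 30.8% for Slco1b2, below the 32.2% of Abcc2, with a median of 21.2% over the 9 beside 23.9%. In LNA29 livers it ran from 13.9% for Slco2b1 to 35.3% for Slc22a7, with a median of 21.4% beside 27.0%. The 8990 genes were not matched in level to the transporters, whose means over 12 livers ran from 465 for Slc22a7 to 13213 for Abcc3. These medians therefore do not show whether the transporters vary more or less than genes of like level. Single livers were high or low for several transporters at once. LNA29 replicate 44 was the highest of its group for Slco1b2, Slco2b1, Abcc3 and Abcb4, and LNA29 replicate 48 was the lowest of its group for Slco1a4, Slco1b2, Slco2b1 and Abcc2 but the highest for Abcc6. In saline livers, replicate 47 was lowest for Slco1a4, Slco2b1, Abcc2 and Abcc3.

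Such shared movement was measured with the deviations of log2 values from the group mean over 12 livers, for all 36 pairs of transporters. A permutation test with 100000 shuffles within groups and Benjamini-Hochberg adjustment over the 36 pairs gave an adjusted p under 0.05 for 3 pairs. The share of pairs of other genes that would pass this test is not given here, so this count describes these transporters only. Abcc2 and Abcc3 had Pearson r = 0.853 (permutation p = 0.000220, adjusted 0.00792) and Spearman rho = 0.832 (permutation p = 0.00245, adjusted 0.0441), and r was 0.891 without the 2 livers farthest from the median of Abcc2. Slco2b1 and Abcc2 had r = 0.811 (permutation p = 0.000660, adjusted 0.0119) and rho = 0.888 (permutation p = 0.000480, adjusted 0.0173), and r = 0.683 without the 2 livers farthest from the median of Slco2b1. Slco1b2 and Slco2b1 had r = 0.752 (permutation p = 0.00305, adjusted 0.0366), rho = 0.671 (permutation p = 0.0198, adjusted 0.142), and r = 0.743 without the 2 farthest livers. Without saline replicate 49 alone, r was 0.626 for this pair. Slco1a1, Slco1a4, Slc22a7, Abcc6 and Abcb4 had an adjusted p above 0.05 with each of the other transporters.

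The same transporters moved with the length trend of their library, the Spearman rho between transcript length and deviation described for saline replicate 49. Over 12 livers and 9 transporters, 4 had an adjusted permutation p under 0.05 for Pearson r. The share of all tested genes that follow the trend is not given here, so this count describes the 9 transporters only. Slco1b2 had r = 0.936 (permutation p = 0.000320, adjusted 0.00288) and rho = 0.916 (permutation p = 0.000460, adjusted 0.00414). Abcc2 had r = 0.868 (permutation p = 0.000640, adjusted 0.00288) and rho = 0.839 (permutation p = 0.00109, adjusted 0.00490).

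Slco2b1 had r = 0.787 (permutation p = 0.00117, adjusted 0.00351) and rho = 0.734 (permutation p = 0.00614, adjusted 0.0184), and Abcc3 had r = 0.644 (permutation p = 0.0182, adjusted 0.0409) and rho = 0.601 (permutation p = 0.0426, adjusted 0.0767). Without saline replicate 49 and LNA29 replicate 44, the livers farthest from the median trend, r was 0.852 for Slco1b2, 0.776 for Abcc2, 0.522 for Slco2b1 and 0.513 for Abcc3. Slco1a4 had r = 0.552 (permutation p = 0.0473, adjusted 0.0851) and rho = 0.629 (permutation p = 0.0279, adjusted 0.0629). Slco1a1, Slc22a7, Abcc6 and Abcb4 had r between -0.276 and 0.188, with permutation p between 0.361 and 0.943.

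The trend itself overlapped between the groups, with medians of -0.08 in saline and 0.02 in LNA29 livers (exact permutation test, p = 0.9004). With the trend as a covariate in limma the log2 fold change of Abcc2 was -0.40, of Slco2b1 -0.27, of Abcc6 -0.41 and of Slco1a1 0.50, and 4 of 9 transporters had an unadjusted p under 0.05 in place of 2 of 9, with no adjusted p under 0.05. Over all tested genes that share was 12.3% with the covariate and 7.91% without it.

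**Figure D4:**
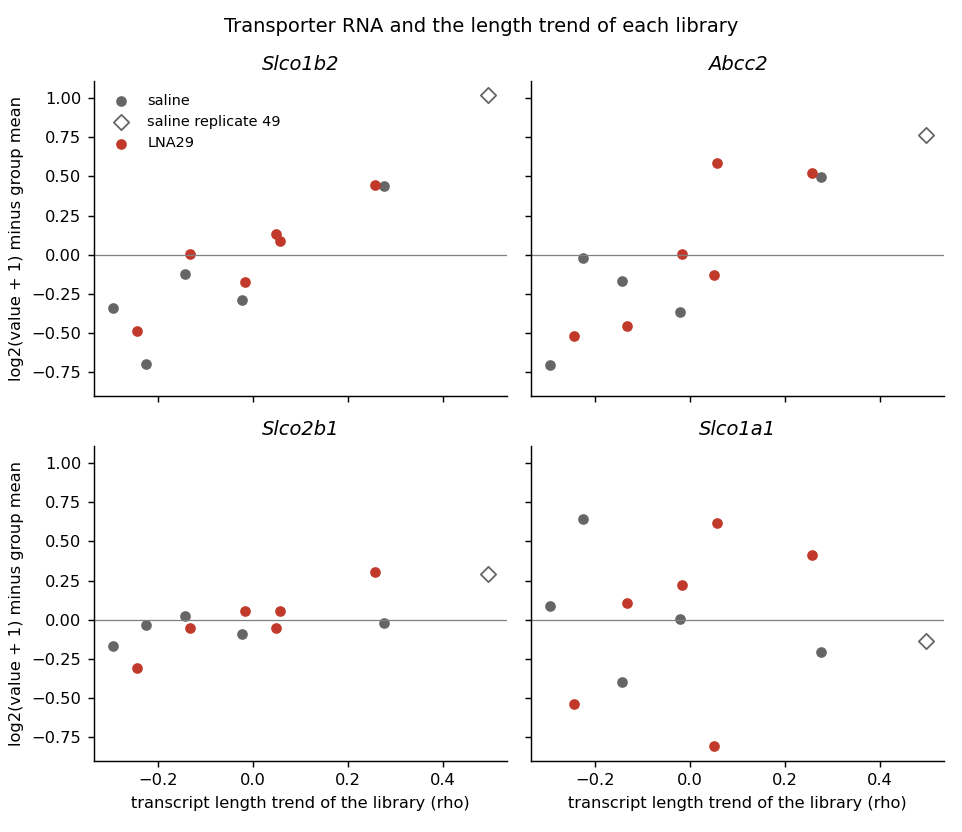
Deviation of log2(value + 1) from the group mean (vertical axis) against the transcript length trend of the library (horizontal axis, Spearman rho across genes) for Slco1b2, Abcc2, Slco2b1 and Slco1a1 in 6 saline (grey) and 6 LNA29 (red) livers, with saline replicate 49 as an open diamond. Slco1b2 (r = 0.936), Abcc2 (r = 0.868) and Slco2b1 (r = 0.787) rise with the trend, and Slco1a1 (r = -0.0207) has no such slope.

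RefSeq promoter windows, from 250 bases before to 50 bases after a start site (GRCm38.p6), were given for 6 of the 9 transporters in 8 windows. Slc22a7, Abcc3 and Abcc6 had none. The windows were searched on both strands for GCGTG, the core bound by AHR, TGACNNNGC, the core of the antioxidant response element, AGGTCA, a hexamer bound by nuclear receptors, and TTCNNNGAA, the site of STAT5. On the opposite strand AGGTCA reads TGACCT, whose first bases are those of the antioxidant core, so that these motifs can overlap. AGGTCA was present in Slco1a1, Slco1b2 and Abcc2, beside 16.3% of all 32851 windows, and TTCNNNGAA in Slco1b2 and in both of the inner windows of Slco2b1, beside 8.30%. TGACNNNGC was present in Abcc2 (12.4% of all windows) and GCGTG in Abcb4 (32.4%). The windows of Slco1b2 and Abcc2, both of which moved with the length trend and hold more than 1 motif, are shown with every match in capitals.
Slco1b2, chr6:141629268-141629567, plus strand: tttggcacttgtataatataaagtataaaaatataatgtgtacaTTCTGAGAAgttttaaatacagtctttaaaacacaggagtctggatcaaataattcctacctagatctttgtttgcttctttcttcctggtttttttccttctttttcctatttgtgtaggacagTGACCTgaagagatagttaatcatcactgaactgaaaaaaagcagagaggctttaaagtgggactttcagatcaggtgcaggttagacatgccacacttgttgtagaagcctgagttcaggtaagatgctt
Abcc2, chr19:43782058-43782357, plus strand: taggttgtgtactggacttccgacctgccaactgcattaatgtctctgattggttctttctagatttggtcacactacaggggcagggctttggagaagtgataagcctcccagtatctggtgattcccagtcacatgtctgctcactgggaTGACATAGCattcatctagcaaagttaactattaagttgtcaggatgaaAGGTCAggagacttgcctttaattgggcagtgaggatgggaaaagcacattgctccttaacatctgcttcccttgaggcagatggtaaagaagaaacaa

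The transporters share other features of sequence and place. Slco1a1, Slco1a4 and Slco1b2 lie close together on chromosome 6, at 141907282 to 141946962, 141805440 to 141856199 and 141629518 to 141686646 in GRCm38. Slco2b1 and Abcc6 are on chromosome 7, and Abcb4, Abcc3, Slc22a7 and Abcc2 on chromosomes 5, 11, 17 and 19. Of the 50-base stretches of its transcripts, Slco1a1 shared 2.26% with other genes, chiefly Slco1a4, Slco1a4 2.73%, chiefly Slco1a5, and Abcb4 3.42%, chiefly Abcb1a, so that their values are uncertain to that extent where reads were divided between copies. Slco1a5 had no read in any liver, and Abcb1a had 141 ± 89.7 in saline and 62.9 ± 27.9 in LNA29 livers (SD, n = 6 each).

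For the transporters with the highest and the lowest log2 fold change over 12 livers, the most similar genes over the 12 livers were sought among 3109 other genes with a mean of at least 1000, as a description. Slco1a1 was followed most closely by Egfr (r = 0.908), the epidermal growth factor receptor, Hsp90b1 (r = 0.829), a chaperone of the endoplasmic reticulum, and Fcna (r = 0.819), a lectin of the complement system. Abcc2 was followed by C1s (r = 0.946), a complement protease, Myh9 (r = 0.946), a non-muscle myosin, and Tex2 (r = 0.939). None of these 6 had a limma adjusted p under 0.05.

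Related transporters were taken from lists of genes fixed by family or role. Among them 0 were called in limma, 0 in each direction, beside the 0.160% of all tested genes. Of the other organic anion transporting polypeptides, 2 of 8 passed the filter on low values and both had lower estimates, Slco3a1 (log2 fold change -0.61) and Slco2a1, a prostaglandin carrier (-0.11, and 0.01 without saline replicate 49). Of 20 other organic ion, carnitine and nucleoside carriers 13 were tested, 1 higher and 12 lower, with a median of -0.38. Slc22a23 had a log2 fold change of -0.71 and Slc22a30 of -0.97, with limma adjusted p of 0.402 and 0.413.

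Of 8 bile salt carriers 7 were tested, 4 higher and 3 lower with a median of 0.01, but 3 higher and 4 lower with a median of -0.06 once saline replicate 49 was left out. Slc10a1, the sodium-dependent uptake carrier of bile salts, had 38513 ± 4986 in saline and 24801 ± 8288 in LNA29 livers (SD, n = 6 each), with 5 of 6 LNA29 livers below every saline liver. Its log2 fold change was -0.71 (standard error 0.22, limma adjusted p = 0.298; exact permutation test, p = 0.00433). Abcb11, the canalicular bile salt pump, had -0.20 and Atp8b1, a canalicular phospholipid flippase, 0.19, and these were -0.06 and 0.37 with that liver left out.

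Of 19 other ABC transporters of subfamilies B, C and G, 17 were tested, 4 higher and 13 lower, with a median of -0.36 (-0.23 without saline replicate 49). Abcg8, which exports sterols into bile as a dimer with Abcg5, had a log2 fold change of -0.58 (limma adjusted p = 0.324; exact permutation test, p = 0.0195). Abcb1a, the P-glycoprotein gene, had -1.08 (limma adjusted p = 0.621), and Abcb8, a mitochondrial transporter, -0.33 (limma adjusted p = 0.657).

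The regulators known to act on hepatic transporter genes numbered 23, all tested, with 5 higher, 18 lower, 0 called and a median of -0.22. Without saline replicate 49 they were 7 higher and 16 lower, with a median of -0.11. The smallest p-values were those of Ghr, the growth hormone receptor (-0.59, limma adjusted p = 0.347; exact permutation test, p = 0.0152), Nr1i3, which encodes the xenobiotic receptor CAR (-0.45, limma adjusted p = 0.347; exact permutation test, p = 0.0152), and Cebpa (-0.40, limma adjusted p = 0.539). In Ghr and in Nr1i3 5 of the 6 LNA29 livers lay below every saline liver.

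The marker targets of these regulators pointed in no single direction. Of 11 tested targets of CAR and PXR 5 were higher and 6 lower, with a median of -0.00177 and 0 called, and Cyp3a11 (1.15), Gadd45b (0.97) and Gstm3 (-0.76) had the smallest p (limma adjusted p = 0.172, 0.141 and 0.486). At an unadjusted limma p under 0.05, 3 of these 11 were higher and 3 lower, beside 1.95% and 5.97% of all tested genes. Of 11 NRF2 targets 3 were higher and 8 lower, with a median of -0.37 (-0.20 without saline replicate 49), led by Ugdh (-0.43), Gclm (-0.37) and Gstm1 (-0.45). Of 6 AHR targets 3 were tested, with 1 higher and 2 lower and a median of -0.27, among them Cyp1a2 (-0.27) and Ugt1a6a (0.26, but 0.14 without saline replicate 49 and -0.28 without LNA29 replicate 48). Of 10 PPAR-alpha targets 6 were higher and 4 lower, with a median of 0.30, and Vnn1 (-1.01), Fgf21 (1.06) and Acot1 (0.40) had limma adjusted p of 0.0834, 0.432 and 0.672.

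Since Slco1a1 is male-biased in mouse liver, other sex-biased genes were set beside it. Of 10 tested male-biased genes 5 were higher and 5 lower, with a median of 0.24 (0.15 without saline replicate 49) and 0 called. Serpina1e had a log2 fold change of 2.33, Mup20 0.63 and Cyp2d9 0.63, with limma adjusted p of 0.166, 0.302 and 0.747, and in each of them 4 LNA29 livers lay above every saline liver, although for Cyp2d9 another LNA29 liver lay below every saline liver.

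Of 11 tested female-biased genes 3 were higher and 8 lower, with a median of -0.49, and 1 was called. Acot3, a peroxisomal acyl-CoA thioesterase, fell, with a log2 fold change of -1.32 (limma adjusted p = 0.0224, standard error 0.20). It went from 3295 ± 763 to 1339 ± 407 (SD, n = 6 each), with all 6 LNA29 livers below all 6 saline livers. With 1 liver left out its log2 fold change lay between -1.44 and -1.23. Between 1 and 4 of the listed genes outside the transporters were then called, so the call of Acot3 is not certain to hold in each such fit. Cyp2b13 (-0.99), Cyp2b9 (-0.49) and Sult2a1 (-1.01) had limma adjusted p of 0.210, 0.498 and 0.528, with 4 LNA29 livers below every saline liver in each.

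**Figure D5:**
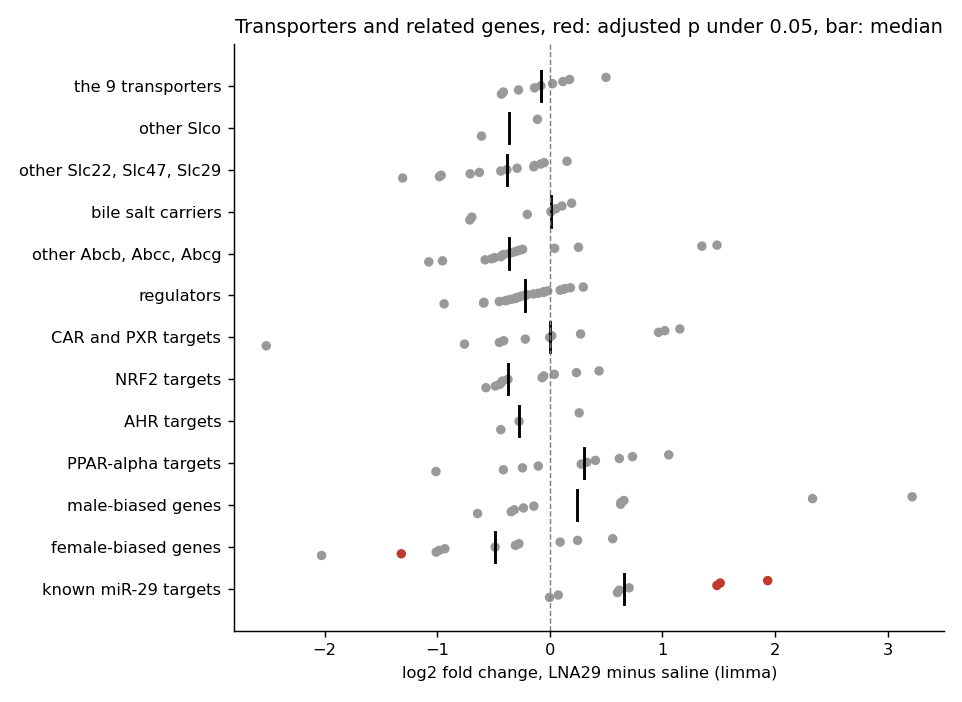
Log2 fold change (LNA29 minus saline, horizontal axis) of every tested gene in the 9 transporters and in 12 lists of related genes (1 row a list, 1 point a gene), with the list median as a black bar and genes with a limma adjusted p under 0.05 in red. Only Acot3 among the female-biased genes and Col3a1, Sparc and Eln among the known miR-29 targets are red.

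Cell type markers were summed in each liver, as whole lists. The 7 hepatocyte markers, led by Alb, had sums of 32385000 to 109363000 in saline livers, against 79308300 to 94478000 in LNA29 livers (exact permutation test, p = 0.645). Alb alone was 29304000 and 98695000 in the saline livers with these lowest and highest sums, so the sum and its test follow mostly this gene. Apoa1 (0.62, but 0.31 without saline replicate 49), Ass1 (0.34) and Cyp2e1 (-0.50) were the genes with the smallest p. Of the hepatocyte markers 5 had higher and 2 lower estimates, against 3 and 4 with saline replicate 49 left out. The 8 sinusoidal endothelial markers, led by Stab1, summed to between 6460 and 6930 in saline and between 5375 and 6836 in LNA29 livers, with 4 LNA29 livers below every saline liver (exact permutation test, p = 0.0346), and this p was 0.0476 without saline replicate 49. Of the endothelial markers 2 had higher and 6 lower estimates. The 3 with the smallest p among them were Stab1 at -0.34, Clec4g at -0.26 and Lyve1 at -0.29 on the log2 scale. Lyve1 ranged from -0.455 to -0.082 with 1 liver left out. Whether the difference in the endothelial sums bears on the values of Abcc6 and Slco2b1 was not tested.

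In the sums of the other lists the groups overlapped. The 9 Kupffer cell markers, led by Clec4f, summed to a median of 17323 in saline and 14950 in LNA29 livers (exact permutation test, p = 0.790), and Marco was at 1.08, Vsig4 at -0.52 and Timd4 at -0.38 (-0.23 without saline replicate 49) on the log2 scale. The 8 stellate cell markers, led by Dcn, had medians of 4831 and 4560 (exact permutation test, p = 0.688), with Pdgfrb at -0.35, Reln at -0.32 and Lrat at 0.43, the last 2 at -0.15 and 0.67 without saline replicate 49.

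The 7 bile duct markers, led by Spp1, had medians of 701 and 768 (exact permutation test, p = 0.825), with Spp1 at -0.38 and Sox9 at 0.44, and up to 3 of them had no read in a liver. The 7 blood markers in the table, led by Hbb-b1, had medians of 5011 and 4561 (exact permutation test, p = 0.526), with Cd79a at -0.66, Hbb-b1 at 0.47 and Ptprc at -0.32. Ptprc was at -0.04 without saline replicate 49, and Hbb-b1 was as low as 0.09 with 1 liver left out. None of these cell type markers had a limma adjusted p under 0.05.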

How the data were processed

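Liver messenger RNA of 6 saline and 6 LNA29 mice was compared. According to the methods of the study, TruSeq polyA libraries were read from a single end on a HiSeq 2000 and aligned with MapSplice2. The submitters' processing notes name mm9 and RSEM, and versions and annotation are not given in the sources used here. The authors deposited a signal per gene and liver, scaled to the upper quartile. Between 92.2% and 93.8% of the values in a liver were whole multiples, within 0.02, of the worth of 1 read, so reads were recovered and rounded. The deposited columns of group means, fold changes and p-values and 3 columns without a name were left aside and not used.

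Genes with a mean of 10 or more, 12486 in all, were tested on log2(value + 1) by limma 3.58.1 in R 4.3.3, with its intensity trend. P-values were adjusted by Benjamini-Hochberg and called under 0.05. Exact permutation tests were two-sided over 924 divisions. Alternatives were pseudocounts of 0.1 and 10, a minimum mean of 100 and none, a common median, array weights, the length trend as covariate, values beyond 1.5 SD left out, recovered reads in edgeR 4.0.16 or in DESeq2 1.42.0, and leaving out each liver. edgeR called 17 genes and DESeq2 72. The fits were tested on simulated reads. Replicate numbers are not shared between the groups, so no block was fitted.

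The transporters, the 18 other lists (197 genes, 193 in the table) and the tests were chosen with earlier results of these data known. Named are all 9 transporters, from each other list every gene with a limma adjusted p under 0.05 and up to 3 with the smallest p among those with a mean of at least 100, a whole list of 3 or fewer, Col1a1 and Col3a1, and the most similar genes. One gene that this rule names is not reported here. Transcripts and 3′ UTRs came from GENCODE (GRCm38), and miRNAs and promoters from RefSeq (GRCm38.p6). Python 3.11.15 with numpy 2.4.6, pandas 2.3.3 and scipy 1.17.1 was used for the other steps.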

Additional observations from a re-analysis of the deposited data

Results flagged for a closer look

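In 160 groups of 6 values, from 70 named genes, marker sums and library measures, 19 had a single liver set apart by an unusually large gap, taken as a share of the group's range, where chance gives about 1 in 20. None of the 9 transporters had such a liver in either group, although saline replicate 49 was the highest for 4 of them.

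Among the library measures, the share of reads on albumin (gap 0.701 of the range) and on the 10 largest genes (0.757) set saline replicate 49 apart, at 35.7% and 56.6%. The same liver stood apart in Ptprc, a leukocyte gene, at 460 against 127 to 172 (0.865). The part of this library in the transporter values was examined by leaving it out.

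For genes named beside the transporters, LNA29 replicate 48 was low in Slc22a23, at 434 against 821 to 973 (0.719), and high in Ugt1a6a, at 25515 against 1544 to 4707 (0.868), and in Cd79a, at 396 against 82.2 to 189 (0.661). LNA29 replicate 54 was high in Nr1i3, at 7697 against 4181 to 5207 (0.708), and in Marco, at 3425 against 446 to 988 (0.818). LNA29 replicate 44 was high in Ugdh, at 1262 against 714 to 890.4 (0.679), LNA29 replicate 46 in Sult2a1, at 16226 against 2216 to 6765 (0.675), and LNA29 replicate 52 in Hbb-b1, at 16298 against 2131 to 6954 (0.660).

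In saline livers, replicate 51 was high in Slc10a1, at 48050.5 against 33578 to 38625 (0.651). Replicate 43 was high in Ghr, at 3688 against 2000 to 2381 (0.774), and in Spp1, at 562 against 281 to 382 (0.639). Replicate 45 was high in Gadd45b, at 746 against 304 to 444 (0.682), and in Marco, at 984 against 344 to 526 (0.715). Replicate 47 was high in Gstm3, at 2035 against 765 to 1000 (0.815). Replicate 53, the highest saline liver for Slco1a1, was also high in Egfr, at 3510 against 2100 to 2368 (0.810), and in Hsp90b1, at 45666 against 21269 to 26702 (0.777), both of which follow Slco1a1 over the 12 livers.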

How the results depend on the processing

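No transporter had an adjusted p under 0.05 under any of the 10 other settings or with any 1 liver left out. The count of transporters with an unadjusted p under 0.05, 2 in limma, was 1 with a pseudocount of 10 or with a minimum mean of 100, 3 with values beyond 1.5 SD left out (16.8% of all tested genes) and 4 with the length trend as covariate (12.3%, against 7.91% in the limma fit without it), and between 1 and 3 with 1 liver left out. With a common median or array weights the 2 were Abcc6 and Slco1a1 in place of Abcc6 and Slco2b1. Of all tested genes, 7.12% had an unadjusted p under 0.05 with a common median and 10.8% with array weights. Without saline replicate 49 it was 7.98% of all tested genes. For a pseudocount of 10, a minimum mean of 100 and the other livers left out, this share is not given here. Those counts describe the transporters only. The count without overlap, 0, was between 0 and 1 with 1 liver left out, and 1 (Slco2b1) without LNA29 replicate 44. That liver was the only LNA29 liver not below every saline liver for Slco2b1. Of all tested genes 0.985% had no overlap over 12 livers and 1.54% without saline replicate 49. This share is not given here for the other livers left out, LNA29 replicate 44 among them. The number with an exact permutation p under 0.05, 2, lay between 2 and 3 with 1 liver left out. The share of all tested genes under this test is not given here. The exact permutation p ranged from 0.00433 to 0.0476 for Slco2b1 and from 0.00649 to 0.0260 for Abcc6. The median log2 fold change, -0.08, lay between -0.18 and -0.02 with 1 liver left out and was 0.00207 in DESeq2, where that of Abcc3 was also 0.00207. With 1 liver left out, the log2 fold change of Abcb4 ranged from -0.0385 to 0.107 and that of Slco1a4 from -0.0304 to 0.346. That of Abcc3 ranged from -0.176 to -0.0284 and that of Slco1b2 from 0.0351 to 0.379. Among the other named genes, Slco2a1 was at 0.0278 with array weights, and Reln at 0.0440 and Ugt1a6a at -0.11 with values beyond 1.5 SD left out. Slco2a1 ranged from -0.238 to 0.0289 and Ugt1a6a from -0.28 to 0.53 with 1 liver left out. The causes were not tested. A shift to a common median moved the median of all tested genes from -0.09 to -0.05 and reversed no transporter.

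The count of all tested genes called, 20, ranged from 1 to 29 with 1 liver left out, and was 5 without a filter, 10 with a common median, 58 with array weights, 124 with the length trend, 72 in DESeq2 and 217 with values beyond 1.5 SD left out. Depth limits Slc22a7 and Slco1a1 most, where a single read is up to several percent of the value. All values come from 1 tissue, sex, dose and day.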
